A study of Rattus norvegicus with 6 samples.

Results

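Aminoacyl-tRNA synthetases are the enzymes that join each amino acid to its transfer RNA. The set described here was chosen by name: 19 cytosolic members and 16 mitochondrial members, which are encoded in the nucleus and carry names ending in 2. A member counted as measured where a probe carried one of its RefSeq accessions. This held for all 19 cytosolic and 13 mitochondrial members, 32 of the 15645 genes that could be named on the array. The mitochondrial enzymes for isoleucine, leucine and methionine (Iars2, Lars2 and Mars2) had no such probe and are not analysed here. The 32 members had 66 probes, every one well above background on all 6 arrays, so the filter on dim probes removed no measured member.

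The livers came from male Sprague-Dawley rats, bought at 5 weeks of age and kept on a basal diet, with 1 array per animal. The vehicle group (n = 3) was given corn oil. The treated group (n = 3) was given TBBC at 300 mg/kg/day. TBBC is a phenolic antioxidant in which a sulfur (thiobis) bridge joins a pair of 6-tert-butyl-m-cresol rings at position 4 of each. The labels give the duration as 28 days in one place and 9 weeks in another. Whole liver RNA was measured, so fewer cells of a type and less RNA per cell cannot be told apart.

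In the cytosol these enzymes supply charged tRNA to the ribosomes that read nuclear messages, and in the mitochondrion a separate set serves the few proteins encoded by mitochondrial DNA. Many cytosolic members are known targets of ATF4, the transcription factor of the integrated stress response. ATF4 is made when the initiation factor eIF2 is phosphorylated, as in amino acid shortage or stress of the endoplasmic reticulum, and it binds the C/EBP-ATF response element. In liver the same factor drives genes of asparagine and serine synthesis.

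Levels are log2 processed signal minus the log2 of that array's 75th percentile, so 0 is a spot as bright as that percentile. Each gene is given by its brightest probe. Between 36919 and 39386 of the 61537 probes other than controls were well above background on each array, and the 75th percentile of signal was 465.2 to 638.2. It was lowest on vehicle replicate 2. All vehicle arrays lay on 1 slide and all TBBC arrays on another, each slide with its own scan, so slide and treatment cannot be told apart. The test was limma's moderated test over all 29326 features with Benjamini-Hochberg adjustment and a threshold of 0.05. At that threshold 902 features (3.08%) changed, 410 lower (1.4%) and 492 higher (1.68%) with TBBC. That split moved to 306 lower and 746 higher with median centring, and to 130 lower and 574 higher with spike-in scaling.

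Among the cytosolic synthetases, 2 of 19 fell with TBBC, none rose and 17 did not pass the test. The 2 were Cars1, which charges the tRNA of cysteine, and Mars1, which charges methionine tRNAs, the initiator among them. Among the 13 mitochondrial members none passed in either direction. The background for lower features was 1.4% of all tested.

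Cars1 gave levels of 2.27, 2.12 and 2.09 on vehicle replicates 1 to 3 and of 1.37, 0.77 and 0.81 on TBBC replicates 1 to 3. Every TBBC array was below every vehicle array, and TBBC replicate 1 was the nearest to vehicle. Its mean was 2.16 ± 0.10 with vehicle and 0.99 ± 0.33 with TBBC (SD, n = 3 each). It fell by 1.18 ± 0.18 on the log2 scale (SE), a level 2.26-fold lower with TBBC (limma adjusted p = 0.0313). Its pair of probes gave differences of -1.18 and -1.19. This call was lost in 8 of 17 alternative settings, with a difference of -1.37 to -0.95 and adjusted p of 0.0165 to 0.108 over all of them.

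Mars1 gave levels of 4.50, 4.39 and 4.41 on the vehicle arrays and of 3.98, 3.80 and 3.74 on the TBBC arrays. The groups did not overlap, and the gap between them was wider than the range within either. Mars1 fell by 0.59 ± 0.11 on the log2 scale, a level 1.51-fold lower with TBBC (limma adjusted p = 0.0483). Its second probe differed by -0.65, with a limma adjusted p of 0.0547 when every probe was tested on its own. The call of Mars1 sat close to the threshold and was lost in 10 of 17 settings, with differences of -0.66 to -0.37 and adjusted p of 0.0219 to 0.321.

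Leaving out vehicle replicate 1, 2 or 3, or TBBC replicate 2 or 3, left no cytosolic member past the threshold. Without TBBC replicate 1, Cars1 (difference -1.37) and Gars1 (difference -0.93) passed and Mars1 (difference -0.66) did not. With arrays scaled on their spike-in controls neither Cars1 (-0.95, limma adjusted p = 0.063) nor Mars1 (-0.37, limma adjusted p = 0.321) passed.

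Gars1, which charges glycine tRNA in both compartments, gave levels of 6.21, 6.24 and 6.38 with vehicle and of 5.92, 5.31 and 5.38 with TBBC. The groups did not overlap, and TBBC replicate 1 again lay nearest to vehicle. The log2 difference was -0.74 ± 0.18 and did not pass (limma adjusted p = 0.0864), and its 3 probes gave -0.74 to -0.52. Sars1, the serine enzyme, whose product also starts the making of selenocysteine tRNA, differed by -0.56 ± 0.13 (limma adjusted p = 0.0716). Its levels were 2.04 to 2.23 with vehicle and 1.38 to 1.66 with TBBC. Both missed the threshold in this fit and passed with normexp background correction (Gars1 adjusted p = 0.0367, Sars1 adjusted p = 0.04998, by limma). Tars1, the threonine enzyme, differed by -0.47 ± 0.15 (limma adjusted p = 0.135), with levels of 5.58 to 5.81 with vehicle and 5.11 to 5.51 with TBBC.

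**Figure D1:**
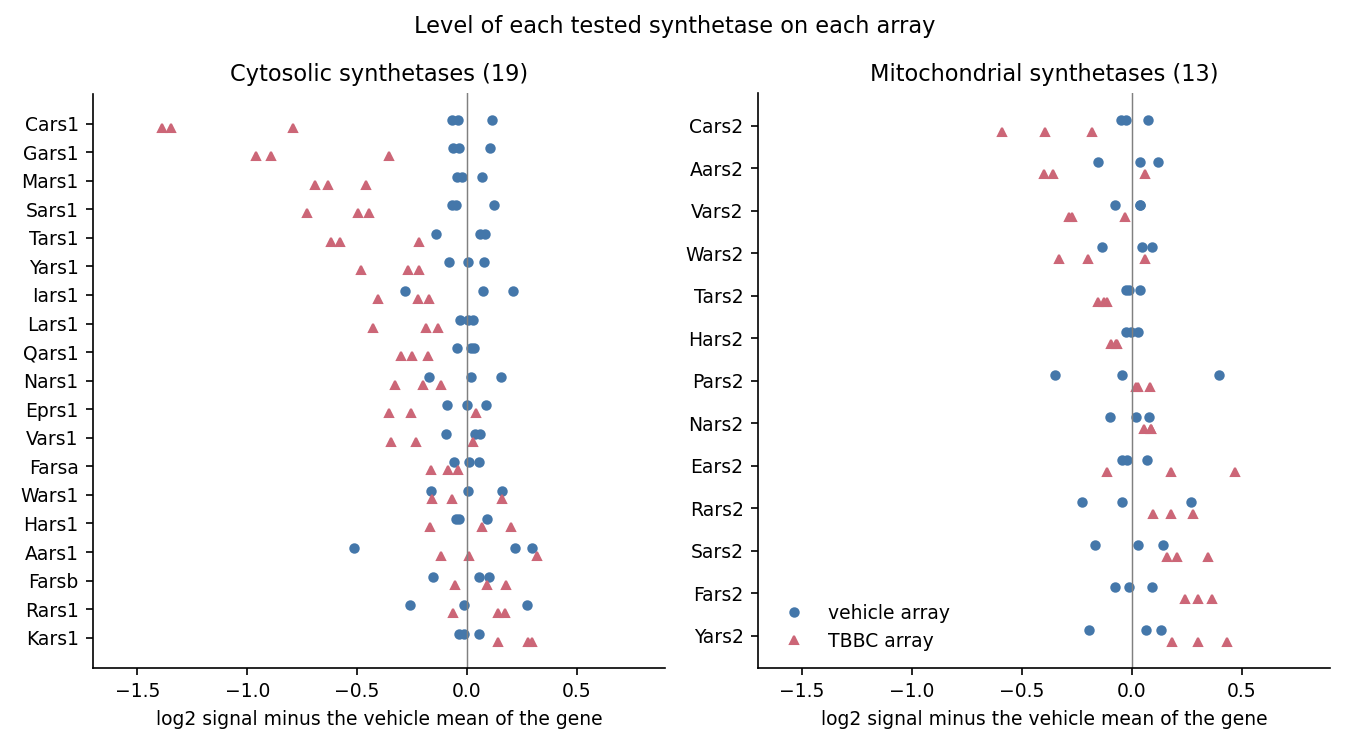
Level of each tested synthetase on each array as log2 signal minus the gene's vehicle mean (horizontal axis), with cytosolic members on the left and mitochondrial members on the right; circles are vehicle arrays and triangles TBBC arrays. The TBBC arrays lie wholly below the vehicle arrays for 8 cytosolic members (Cars1, Gars1, Mars1, Sars1, Tars1, Yars1, Lars1 and Qars1) and 3 mitochondrial members (Cars2, Tars2 and Hars2), and wholly above for 1 (Kars1) and 3 (Sars2, Fars2 and Yars2).

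The other cytosolic members moved less. Yars1, the tyrosine enzyme, differed by -0.32 ± 0.12, Iars1, the isoleucine enzyme, by -0.27 ± 0.16 and Lars1, the leucine enzyme and a leucine sensor of the mTORC1 pathway, by -0.25 ± 0.12. Qars1, the glutamine enzyme, differed by -0.24 ± 0.10 and Nars1, the asparagine enzyme, by -0.22 ± 0.13. Eprs1, a fused enzyme for glutamate and proline, and Vars1, the valine enzyme, differed by -0.19 ± 0.14 and -0.18 ± 0.13. Farsa, the alpha subunit of the phenylalanine enzyme, differed by -0.10 ± 0.10 and its beta subunit Farsb by 0.07 ± 0.13. Wars1, the tryptophan enzyme, which interferon gamma induces in many cells, differed by -0.02 ± 0.14 (95% interval -0.36 to 0.31). Hars1, the histidine enzyme, differed by 0.03 ± 0.13 and Rars1, the arginine enzyme, by 0.08 ± 0.16. None of these passed the test.

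Aars1, the alanine enzyme, had the widest spread of the cytosolic members. Its levels were 5.49, 4.68 and 5.41 on the vehicle arrays and 5.51, 5.20 and 5.07 on the TBBC arrays. Vehicle replicate 2 was the lowest array, and the difference of 0.07 ± 0.24 had a 95% interval of -0.52 to 0.65. Its second probe gave -0.22, so the direction of Aars1 differed between its probes.

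Kars1, the lysine enzyme, which serves both compartments, had the highest difference among the cytosolic members. Its levels were 3.17, 3.15 and 3.25 with vehicle and 3.33, 3.49 and 3.47 with TBBC. The groups did not overlap, but the difference of 0.24 ± 0.11 did not pass (limma adjusted p = 0.239). Its other probes gave -0.02 and 0.04, so the size rests on the brightest of 3 probes.

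As a set, the cytosolic members had a median log2 difference of -0.22, against -0.06 for all features tested. Of the 19, 14 had a negative difference, where 57.6% of all features did. The groups did not overlap for 8 lower and 1 higher member, against 18.8% and 12.3% of all features. Before adjustment, 7 members had p under 0.05 and were lower and none was higher, against 13.5% and 9.48% of all features. All features include unnamed probes. Of the 11235 named genes, each given by its brightest probe as the members are, 5900 were negative, with a median of -0.02. The groups did not overlap for 1763 lower and 1739 higher named genes. Before adjustment, 1225 lower and 1282 higher named genes had p under 0.05. With spike-in scaling the cytosolic median was 0.00 and 9 members were negative, since that scaling moved the median of all features from -0.06 to 0.16. Set against the all-feature median, the cytosolic members stood at -0.16 under both scalings. That sameness was fixed in advance, since a change of scaling moves every difference by the same amount. With normexp, which can change it, the value was -0.07.

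**Figure D2:**
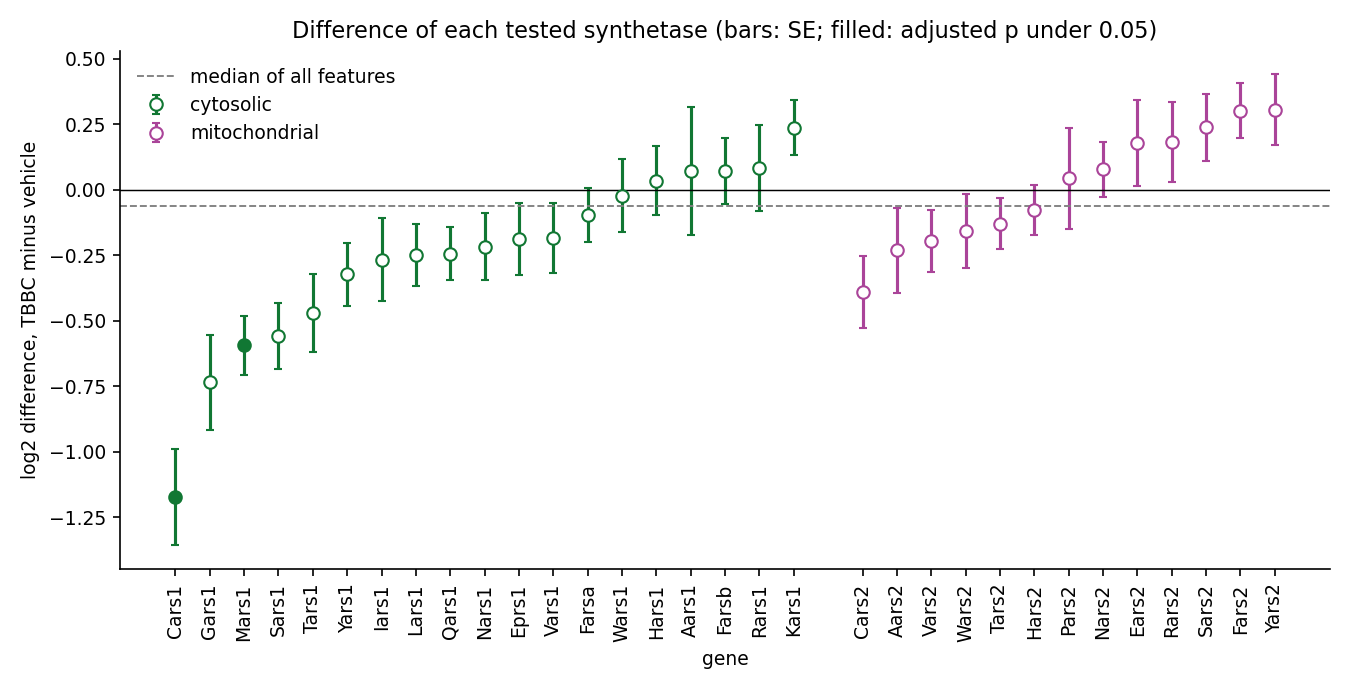
Log2 difference, TBBC minus vehicle (vertical axis), of each tested synthetase with its standard error, cytosolic members first and mitochondrial members second. Filled points passed the test and the dashed line is the median of all features (-0.06); only Cars1 and Mars1 are filled.

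The promoters of the cytosolic members were searched for the response element that ATF4 binds, since its targets are among them. The windows, from RefSeq on the build GRCr8, run from 250 bases before to 50 bases after the annotated start, and all listed members except Gars1 and Rars1 had at least 1. The letters TGATGNAAN were searched on both strands. A match was present in 7 of 17 cytosolic windows and in 0 of the 18 windows of the 16 mitochondrial genes, and 3.97% of all 33469 windows held one. All 7 lay among the 11 genes with a window that are usually listed as ATF4 targets, and none among the other 6. The matches within 50 bases of the start, which each of the 7 genes has, are shown with up to 10 bases on each side, on the strand of the gene, so that the shared core can be compared; capitals mark the match. Those of Cars1 and Mars1 are shown as members that fell, and the other matched genes were added after their matches were seen.
Cars1: cggcgccgcgGTTGCATCAgattctggaa
Mars1: gcccgttccgGTTGCATCAgcgtgggctc
Tars1: ctggcgtcccGTTGCATCAgctggttagc
Yars1: cgagctcagcTGATGCAACctg
Iars1: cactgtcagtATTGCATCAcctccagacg
Nars1: ctaggtgatcTGATGCAACgcttcagtca
Aars1: agcgggtcacTTTTCATCAgagcgctctg

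Counted from the start (the first base is 1 and the base before it -1), the match of Cars1 lay at 17 to 25 (chr1:208225335-208225363 with its flanks, minus strand). That of Mars1 lay at -18 to -10 (chr7:65023753-65023781, minus strand) and that of Tars1 at -28 to -20 (chr2:62114812-62114840, minus strand). The match of Iars1 lay at -25 to -17, that of Nars1 at -14 to -6, that of Yars1 at 39 to 47 and that of Aars1 at 9 to 17. Both members that fell, Cars1 and Mars1, and Tars1 carry the same 9 letters GTTGCATCA; Yars1 and Nars1 carry their reverse complement. A match describes letters and is neither a site nor a cause.

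The 250 bases before the start of Mars1 are given in full, because Mars1 was the called member whose match lies upstream of its start (chr7:65023754-65024003, minus strand, match in capitals).
Mars1: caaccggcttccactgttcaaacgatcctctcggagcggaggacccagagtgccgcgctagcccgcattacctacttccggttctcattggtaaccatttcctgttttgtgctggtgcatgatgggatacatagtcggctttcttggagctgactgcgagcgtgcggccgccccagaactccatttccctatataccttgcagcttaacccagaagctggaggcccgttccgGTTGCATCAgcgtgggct

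The 7 cytosolic members with a match had a median log2 difference of -0.32, with 6 of 7 negative, and ranged from -1.18 for Cars1 to 0.07 for Aars1. The 10 with a window and no match had a median of -0.14, with 7 negative, from -0.56 for Sars1 to 0.24 for Kars1. The 2 ranges overlap widely: Sars1 had no match and a larger negative difference than Tars1, and Aars1 had a match and a positive difference. Over all features 57.6% of differences were negative and the median was -0.06.

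**Figure D3:**
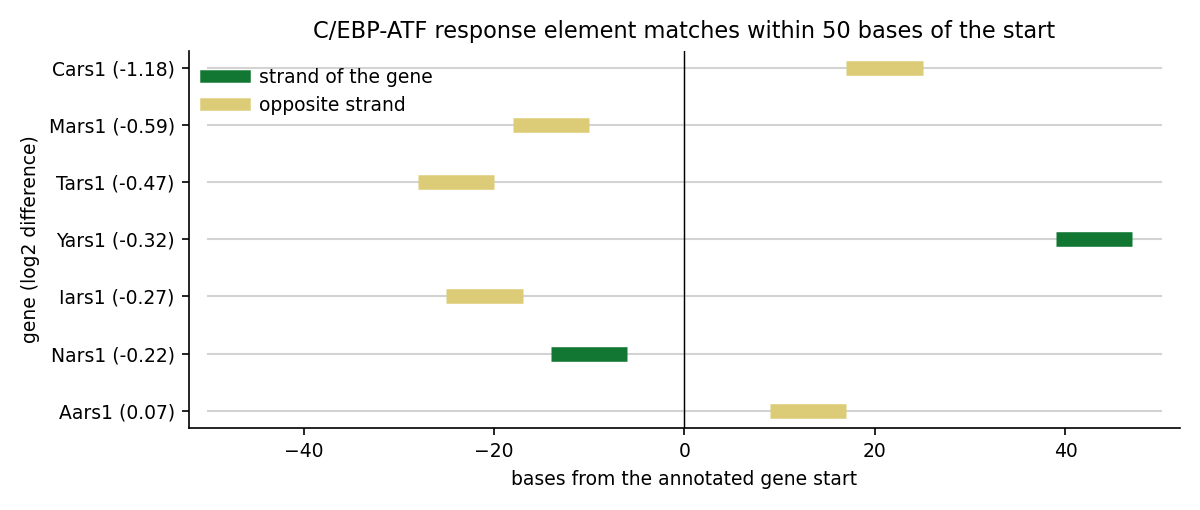
Position of the match to TGATGNAAN within 50 bases of the annotated start in the 7 cytosolic members with a match, in bases from that start (horizontal axis), with each gene's log2 difference in brackets. Those of Iars1, Mars1, Nars1 and Tars1 lie before the start and those of Aars1, Cars1 and Yars1 after it.

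The 12 cytosolic synthetases usually listed as ATF4 targets (Aars1, Cars1, Eprs1, Gars1, Iars1, Lars1, Mars1, Nars1, Sars1, Tars1, Wars1 and Yars1) had 11 negative differences and a median of -0.30, and 2 of them fell. Among the 11, the differences of Eprs1, Nars1 and Wars1 changed sign in at least 1 alternative setting. Nars1 and Wars1 also had probes of positive difference. The other 7 (Farsa, Farsb, Hars1, Kars1, Qars1, Rars1 and Vars1) had 3 negative differences and a median of 0.03, and none passed. For these and the groupings below, 57.6% of all features had a negative difference and 1.4% fell, with a median of -0.06. Of the 11235 named genes, 5900 had a negative difference and 145 fell, with a median of -0.02. Of the 7 synthetases in the multisynthetase complex, a cytosolic assembly, 1 fell (Mars1) and 5 had negative differences, with a median of -0.24. The scaffold proteins of that complex, Aimp1, Aimp2 and Eef1e1, differed by -0.01 ± 0.12, 0.31 ± 0.20 and 0.12 ± 0.15 and did not pass. Synthetases also fall into class I and class II by the fold of their catalytic domain. The 10 cytosolic members counted in class I had a median of -0.25 and 9 negative differences. Both members that fell, Cars1 and Mars1, belong to that class. The fused Eprs1 was counted in class I only, though it holds a glutamate and a proline enzyme. The 9 cytosolic members of class II had a median of -0.10 and 5 negative differences.

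Mitochondrial members lay on both sides of 0. Their median log2 difference was 0.04, with 6 of 13 negative, and their differences ran from -0.39 to 0.31. The median was -0.06 over all features and -0.02 over the 11235 named genes. The groups did not overlap for 3 lower and 3 higher members, against 18.8% and 12.3% of all features. Before adjustment, 1 lower member (Cars2) and 1 higher member (Fars2) had p under 0.05, against 13.5% and 9.48% of all features. With spike-in scaling the mitochondrial median was 0.26 with 2 members negative, and without vehicle replicate 1 it was -0.09 with 7 negative. Set against the all-feature median it stood at 0.10 with either scaling, a sameness fixed in advance as for the cytosolic members. With normexp that value was 0.11, and without vehicle replicate 1 it was -0.02.

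Cars2, the mitochondrial cysteine enzyme, gave levels of 3.39, 3.37 and 3.49 with vehicle and of 3.23, 2.82 and 3.02 with TBBC. The groups did not overlap, and the difference of -0.39 ± 0.14, the most negative of the mitochondrial members, did not pass (limma adjusted p = 0.165). Aars2, the alanine enzyme, had levels of -3.12, -3.31 and -3.03 with vehicle and of -3.09, -3.51 and -3.55 with TBBC. These groups overlapped (difference -0.23 ± 0.16), and its second probe gave 0.10. Vars2, the valine enzyme, had levels of -0.81, -0.93 and -0.81 with vehicle and of -1.13, -0.88 and -1.12 with TBBC, which overlapped too (difference -0.20 ± 0.12).

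Yars2, the tyrosine enzyme, gave levels of 0.08, -0.18 and 0.14 with vehicle and of 0.31, 0.45 and 0.20 with TBBC. All TBBC arrays were above all vehicle arrays, with a difference of 0.31 ± 0.14 that did not pass (limma adjusted p = 0.238). Fars2, the phenylalanine enzyme, which works as a lone chain, gave 0.79, 0.62 and 0.68 with vehicle and 0.94, 1.06 and 1.00 with TBBC. Its groups did not overlap either, and the difference of 0.30 ± 0.11 did not pass (limma adjusted p = 0.167), while its second probe gave 0.43. Sars2, the serine enzyme, gave 1.102, 1.22 and 0.91 with vehicle and 1.24, 1.28 and 1.42 with TBBC, again without overlap, and differed by 0.24 ± 0.13.

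The remaining mitochondrial members did not pass and differed by less. Rars2, for arginine, and Ears2, for glutamate, both differed by 0.18, with SE of 0.15 and 0.16. Nars2, for asparagine, differed by 0.08 ± 0.10 and Pars2, for proline, by 0.04 ± 0.19. Hars2, for histidine, differed by -0.08 ± 0.10, Tars2, for threonine, by -0.13 ± 0.10 and Wars2, for tryptophan, by -0.16 ± 0.14. The groups of Tars2 and Hars2 did not overlap, since their arrays were close together: Tars2 spanned 4.42 to 4.48 with vehicle and 4.29 to 4.33 with TBBC.

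Enzymes for the same amino acid could be set side by side in 14 pairings, in which Eprs1 and Fars2 each appear more than once. The cytosolic difference was the lower in 10 pairings and the higher in 4, and the median of cytosolic minus mitochondrial was -0.26. The widest pairings were serine (Sars1 -0.56, Sars2 0.24) and cysteine (Cars1 -1.18, Cars2 -0.39). Tyrosine followed, with Yars1 at -0.32 and Yars2 at 0.31. For alanine the order was turned, with Aars1 at 0.07 and Aars2 at -0.23, and for valine the pair lay at -0.18 and -0.20. The difference between compartments was not tested. A shift of whole arrays cancels in these pairings.

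**Figure D4:**
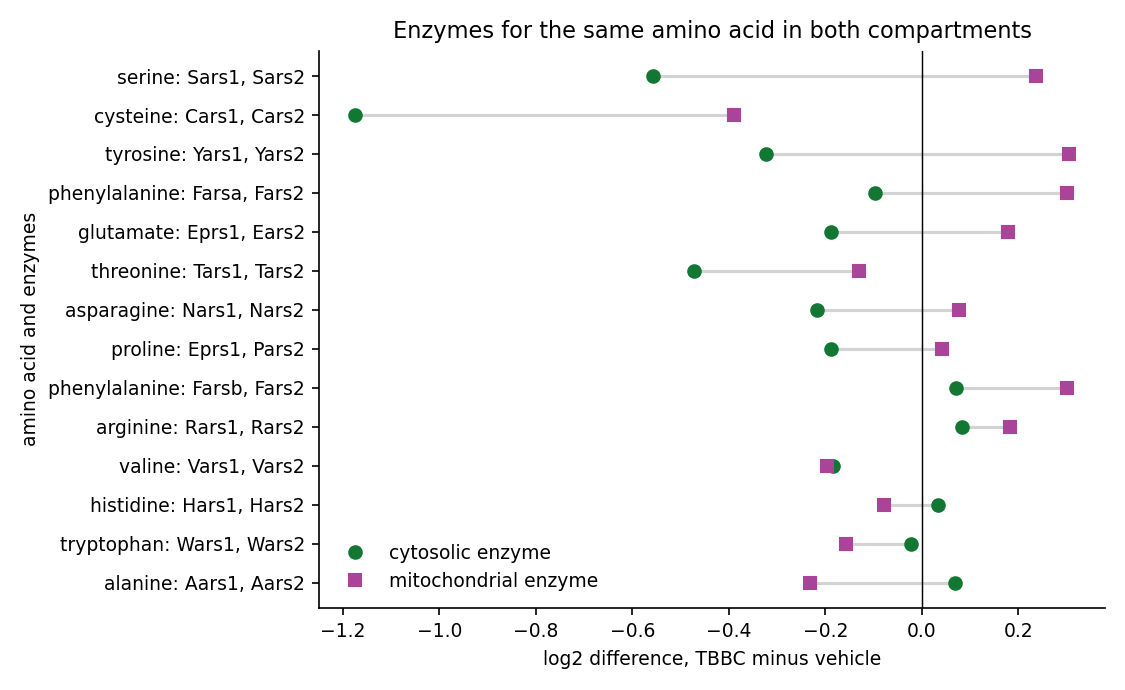
Log2 difference, TBBC minus vehicle (horizontal axis), of the cytosolic enzyme (circle) and the mitochondrial enzyme (square) for each amino acid that has both measured. In 10 of the 14 pairings the circle lies to the left, most widely for serine and cysteine.

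Of the 19 cytosolic members, 10 kept the sign of their difference in all 17 alternative settings, among them Cars1, Gars1, Mars1, Sars1, Tars1 and Kars1. The signs of Aars1, Eprs1, Farsa, Farsb, Hars1, Nars1, Rars1, Vars1 and Wars1 changed in at least 1. Of the 13 mitochondrial members 8 kept their sign, and Hars2, Pars2, Tars2, Vars2 and Wars2 did not. Of the 25 members with several probes, 9 had probes of opposite sign. TBBC replicate 1 was the highest of the 3 TBBC arrays for 11 of 19 cytosolic members and for 5 of 13 mitochondrial members.

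The regulators upstream of the cytosolic synthetases were read from a list of the integrated stress response. Of its 15 members 1 fell, none rose and 14 did not pass, with a median of -0.20, against 1.4% lower and a median of -0.06 over all features. The member that fell was Atf5, a transcription factor induced in this response, by 1.69 ± 0.16 on the log2 scale (limma adjusted p = 0.00803). It read 6.26, 5.84 and 6.29 with vehicle and 4.53, 4.34 and 4.45 with TBBC, a gap that no array crossed. Atf4 itself, named after its values were seen, had levels of 6.07, 5.92 and 5.83 with vehicle and of 5.53, 5.27 and 5.25 with TBBC. Its groups did not overlap, and the difference of -0.59 ± 0.13 did not pass (limma adjusted p = 0.0691). Also named after their values were seen, the eIF2 kinase genes Eif2ak1, Eif2ak3 and Eif2ak4 differed by -0.18, -0.16 and -0.28, and Eif2ak2 by 0.26; none passed.

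Of 27 listed ATF4 targets outside the synthetases, 24 were tested and 23 were well above background on every array. Of these 5 fell, none rose and 18 did not pass, with a median of -0.42. Over all features 1.4% fell and the median was -0.06. The 5 were Fgf21, a liver hormone, Phgdh, the first enzyme of serine synthesis, Asns, the asparagine synthetase, Nupr1, a stress cofactor, and Aldh18a1, of proline synthesis. Phgdh read 6.38, 6.19 and 6.51 with vehicle and 4.35, 3.96 and 3.32 with TBBC, a fall of 2.48 ± 0.26. Asns read 4.05, 3.51 and 3.74 with vehicle and 2.54, 2.09 and 1.72 with TBBC, a fall of 1.65 ± 0.24. In both the groups did not overlap and TBBC replicate 1 lay nearest to vehicle, as it did for Cars1, Gars1 and Mars1.

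Fgf21 fell by 3.85 ± 0.48. Nupr1 and Aldh18a1, named after their values were seen, fell by 1.47 ± 0.22 and 1.05 ± 0.13. The call of Nupr1 held in 9 of 17 alternatives, that of Aldh18a1 in 10, Asns in 11, Fgf21 in 13 and Phgdh in 15. A further target, Slc7a5, encodes a carrier of large neutral amino acids. No vehicle array had its probe well above background, while all 3 TBBC arrays did. A lower bound of its level with TBBC, at least 2.45-fold higher, sets the mean of the TBBC arrays against the lowest signal well above background on the vehicle arrays. The measured difference had a limma adjusted p of 0.0379, but its probe was tested only because the TBBC arrays passed the filter on dim probes, so it is not counted with the list. The serine synthesis enzyme Psat1 and the folate enzyme Mthfd2 differed by -1.79 ± 0.39 and -1.95 ± 0.41 and did not pass (limma adjusted p = 0.0686 and 0.0601). Named after their values were seen, Gdf15 and Cth lay higher with TBBC, without overlap of the groups. They differed by 0.69 ± 0.28 and 0.43 ± 0.17 and did not pass (limma adjusted p = 0.212 and 0.201). Of the 24 tested targets, 19 differences were negative and 5 positive, Slc7a5 included.

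**Figure D5:**
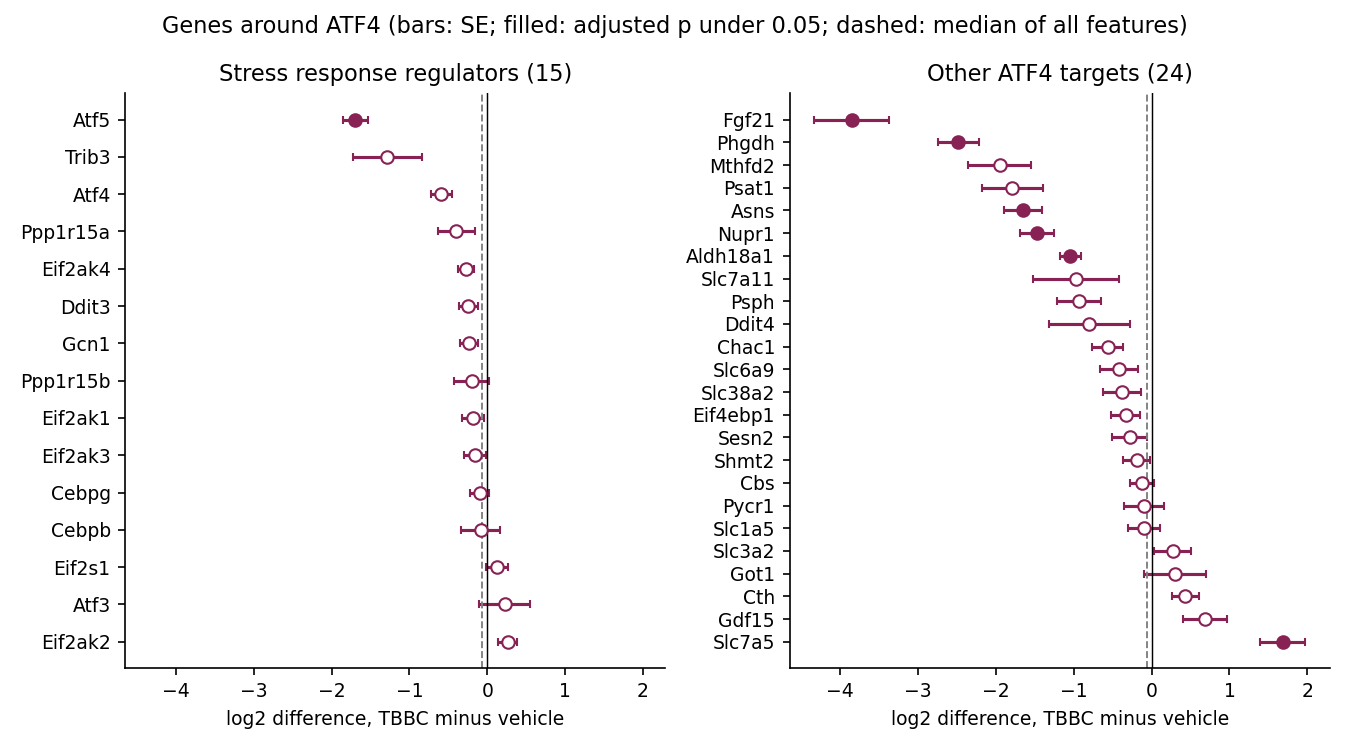
Log2 difference, TBBC minus vehicle (horizontal axis), with standard errors, of the 15 tested regulators of the integrated stress response and the 24 tested ATF4 targets other than synthetases, Slc7a5 included. Filled points passed the test, and the dashed line is the median of all features; Atf5, Fgf21, Phgdh, Asns, Nupr1 and Aldh18a1 are filled on the left of 0 and Slc7a5 on the right.

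Genes that use charged tRNA were read from lists of elongation and mitochondrial translation. None of 8 cytosolic elongation and release genes passed, with a median of -0.08; Eef1a1, which brings charged tRNA to the ribosome, differed by -0.11 ± 0.13 and Eef1b2, its exchange factor, by -0.35 ± 0.11. None of 9 mitochondrial translation factors passed, with a median of -0.06; Tufm, the mitochondrial elongation factor that carries charged tRNA, differed by -0.18 ± 0.10 and Gfm1, the translocation factor, by -0.06 ± 0.13. The 3 tested genes of transamidation and formylation, which complete the charging of mitochondrial tRNA, differed by -0.11 (Qrsl1), -0.07 (Gatc) and 0.04 (Mtfmt). None of 10 partners and tRNA-handling genes passed (median 0.09), with Sephs2 at 0.27 ± 0.23 and Sepsecs, both of selenocysteine synthesis, at -0.14 ± 0.11. Of 10 genes around mTORC1 and MYC, other known inputs to synthetase transcription, none passed (median 0.11), with Rheb at 0.22 ± 0.11 and Rptor at 0.28 ± 0.14.

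Markers of cell types were read beside these values. The summed level of 10 hepatocyte markers was 12.38 to 12.61 on the vehicle arrays and 12.22 to 12.27 on the TBBC arrays, without overlap, and none of the 10 passed. The summed level of 6 of 7 biliary markers was 0.74 to 0.88 with vehicle and 1.67 to 2.20 with TBBC. That sum holds Cftr, kept by the filter only through the TBBC arrays, and Krt7, kept only through the vehicle arrays. The median level of the same 6 overlapped between groups, at -3.305 to -2.21 with vehicle and -2.906 to -2.395 with TBBC. Cftr and Krt7 did not pass the test. Of the 4 well above background on every array, Epcam rose by 1.83 ± 0.21 and 3 did not pass. The 12 interferon-induced genes summed to 6.93 to 7.14 with vehicle and 7.26 to 7.33 with TBBC, and none passed. That sum weighs bright genes most, and Mx2 was by far the brightest (mean 6.42 with vehicle and 6.58 with TBBC). The median level of the 12 overlapped between groups, at 1.886 to 2.433 with vehicle and 2.295 to 2.563 with TBBC. Summed levels overlapped between groups for Kupffer cell (10 of 10 tested), lymphocyte (9 of 12), stellate cell (9 of 10), endothelial (6 of 8) and cycling cell markers (6 of 10), where Pdgfrb, of stellate cells, fell by 0.73 ± 0.14. The part of these markers in the synthetase values was not tested.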

How the data were processed

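The authors deposited 1 scanner file per array with spot intensity on a linear scale, extracted with Agilent Feature Extraction 10.7.1.1 per the file headers (10.7 per the submitters' processing notes). The deposited flags for spots well above background, saturation and outliers were used as given. The authors' value table, an alternative, held the processed intensity of each array divided by about its 75th percentile (column medians 0.0972 to 0.1077).

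Processed intensity was divided by the array's 75th percentile over probes other than controls and log2 transformed. The 25 probes with an outlier flag were left out. A probe was kept if 1 group or both had it well above background on every array (37222 probes). Unversioned RefSeq accessions, matched to a gene table of GRCr8, named 28206 probes (45.8%) with 15645 symbols. The array design names the build rn4. The brightest probe stood for each gene (11235) and each unnamed probe for itself (18091). TBBC was set against vehicle by limma 3.58.1 (R 4.3.3; lmFit and eBayes, two-sided, without covariates), a step checked on simulated data. Errors of differences are moderated SE. The labels speak of separate animals, so p-values set the group difference against the spread between animals within a group. Each group lay on its own slide, so that spread holds no variation between slides, while the group difference does.

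The members and lists were chosen with earlier results of these data known. Values on every array are given for members past the threshold and up to 3 per compartment and direction. Of other lists, up to 4 members past the threshold are named, or the 2 brightest if there are none. Atf4, the eIF2 kinases, Psat1, Mthfd2, Gdf15, Cth, Nupr1, Aldh18a1, Qrsl1 and the scaffold proteins were added after their values were seen. So were the markers Apoa1, Cftr and Krt7. Alternatives were other scalings, background correction, filters, probe rules and variance models, the value table, a replicate block and leaving out each array. Promoter windows were searched whole, and only matches within 50 bases of the start are listed; others are not reported here.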

Additional observations from a re-analysis of the deposited data

How the results depend on the processing

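The count of all features past the threshold (902) was 1589 with normexp and 194 without a filter on dim probes, where more features were tested. The count of cytosolic members past it (2) was 1 with median centring, 4 with normexp, and 0 with spike-in scaling or without a filter on dim probes. Leaving out each array in turn gave 120 to 358 features and 0 to 2 cytosolic members, with fewer samples in each fit. The mitochondrial median (0.04) was 0.14 with median centring and 0.26 with spike-in scaling, and -0.090 to 0.051 when an array was left out. The cytosolic median (-0.22) was 0.0038 with spike-in scaling and -0.28 to -0.16 when an array was left out. In none of the 17 alternatives did a synthetase rise past the threshold, and no mitochondrial member passed in any.

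Animals of the groups share only replicate numbers: correlations of their deviations were 0.0035, -0.022 and 0.144, and 2 of 6 arrays correlated best with their own number. With the replicate block 211 features and 0 cytosolic members passed. With 3 arrays per group, the 95% intervals of all but 7 cytosolic and 2 mitochondrial differences include 0. Every member's probes were flagged well above background, but the handling of background still moved some values. With normexp the difference of Yars2 was 0.11 rather than 0.31, and 4 cytosolic members passed rather than 2. The dimmest members were Aars2, with processed signals of 46.9 to 73.1, and Vars1, with 62.4 to 91.4. Slide and treatment cannot be told apart in any setting.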
